A study of Arabidopsis thaliana with 36 samples.

Results

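Roots of Arabidopsis thaliana that lack PPSR1 were compared with wild-type roots after a day without phosphate (Pi). The comparison took every gene of the deposited table, 27444 in all, in the 3 root libraries of the ppsr1 T-DNA knockout (KO) and the 3 of the wild type Columbia-0 (WT) at 0 µM Pi, which are 6 of the 36 libraries of the study. Both groups were raised in hydroponics at 200 µM Pi for 4 weeks and then spent 24 h in solution with 0 µM Pi before the roots were harvested. KO and WT roots kept at 200 µM Pi, roots of a line that overexpresses AtPPSR1 (OE) at 0 µM Pi, and leaves of the same plants are used below only as points of reference. The labels give the knockout as a single T-DNA line, so what is particular to that line and what follows from the loss of PPSR1 cannot be told apart. The labels call the replicates independent biological replicates and give every library the same batch number.

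Pi is taken up at the root surface by PHT1 transporters and loaded into the xylem by PHO1. When Pi runs short, the transcription factor PHR1, which SPX proteins hold back at high Pi, switches on transporters, SPX genes, acid phosphatases and enzymes that replace phospholipids by lipids without phosphorus, while the E2 enzyme PHO2 and the E3 ligase NLA limit the transporters. Pi shortage in roots is also known to alter iron handling, nitrate responses and root growth.

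Levels are FPKM, the reads of a gene scaled to its coding length in kb and to the size of the library. Depth, recovered from the steps between low values, was between 5380000 and 8730000 reads in the WT libraries and was 2690000, 3250000 and 7740000 reads in KO replicates 1, 2 and 3. All 10 root markers chosen to check the tissue label, among them the β-glucosidase gene BGLU23 and the endodermis gene CASP1, were above 0 in each of the 6 libraries, and their summed level was 8712 to 10308 FPKM in WT and 7682 to 8428 FPKM in KO, wholly lower in KO. BGLU23 supplied most of that sum and overlapped between the groups, and IRT1 and TIP2;3, described below, were the 2 members lower at an unadjusted p under 0.05. Of 19 genes of photosynthetic tissue, 17 were above 0 in each library and none was at 0 in all 6, with sums of 1044 to 3077 FPKM in WT and 1833 to 3527 FPKM in KO, so the groups overlapped. Their part in the results was not tested. KO replicate 2 stood apart from the other KO libraries on the second principal component of the root libraries, which held 12.6% of the variance, with a score of 32.6 against -12.0 and -4.13. On the first component, with 23.7% of the variance, KO scored 26.8, 42.1 and 30.3 and WT -15.9, 15.4 and 4.48, without overlap. The PPSR1 locus could not be matched to a row of the table and was not analysed here, so its level does not check the labels.

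Few genes separated the knockout from the wild type beyond the spread of the libraries. Of 19166 genes tested, 10 passed (0.0522%; limma, adjusted p under 0.05 after Benjamini-Hochberg adjustment), 3 of them higher (0.0157%) and 7 lower (0.0365%) in KO. The 2 groups overlapped for none of the 10, which is no separate support, since the same libraries gave the calls. Of all genes tested, KO lay wholly below WT for 12.1% and wholly above for 6.58%. At an unadjusted p under 0.05 there were 657 genes higher (3.43%) and 1681 lower (8.77%) in KO, and a rescaling of the libraries by median-of-ratios factors changed that split to 886 and 1345. Without WT replicate 3 the 2 counts were 419 and 1029. The number passing depended on single libraries: it was 29 without KO replicate 2, 6 without WT replicate 1, 5 without WT replicate 3, and 5 without both shallow KO libraries, replicates 1 and 2. The largest differences belonged to 5 genes that were at or near 0 in either genotype.

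**Figure D1:**
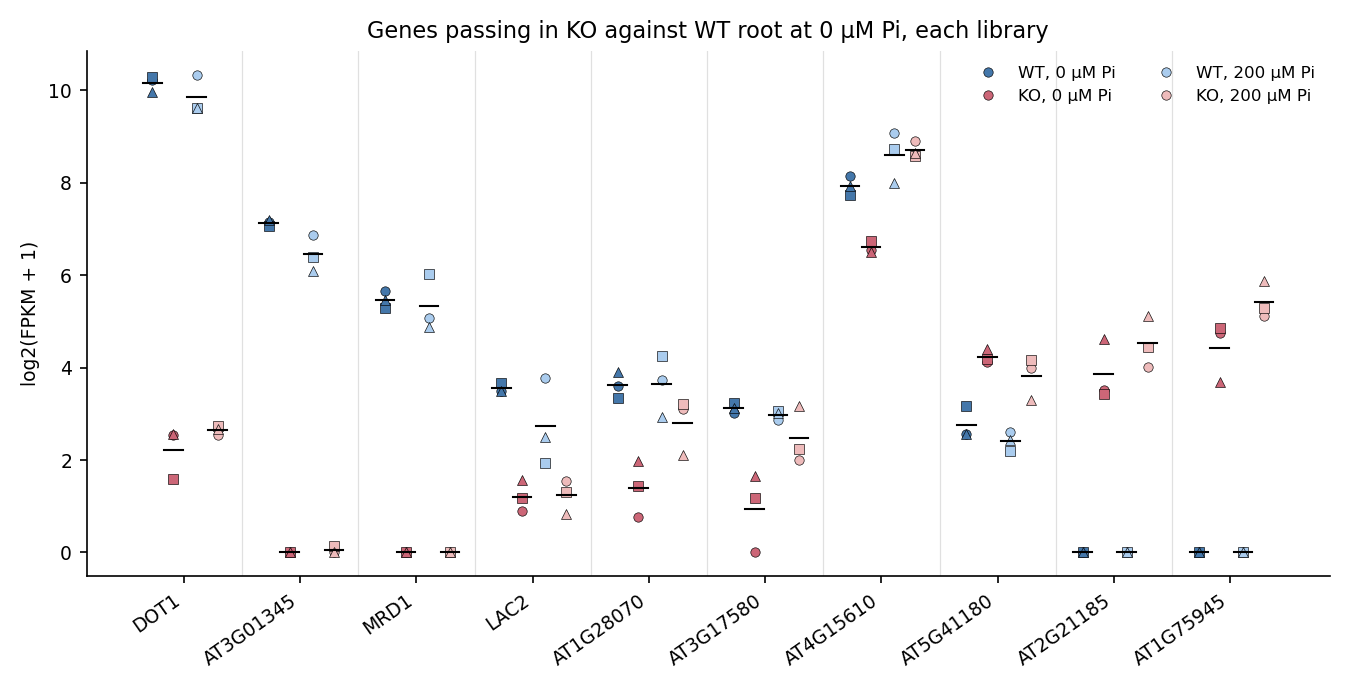
Level of each of the 10 genes that passed in KO against WT root at 0 µM Pi, as log2(FPKM + 1), in every WT and KO root library at 0 µM and 200 µM Pi (circle, square and triangle for replicates 1, 2 and 3, bar for the mean of 3). MRD1 lies at 0 in every KO library, AT2G21185 and AT1G75945 lie at 0 in every WT library, and AT4G15610 differs between the genotypes at 0 µM and overlaps at 200 µM.

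DOT1 (AT2G36120), which encodes a glycine-rich protein named for its role in leaf vein patterning, was the most abundant gene to fall. It read 1191, 1240 and 992 FPKM in WT replicates 1, 2 and 3 and 4.82, 1.99 and 4.88 FPKM in the KO libraries, a ratio of the means of 293. The lowest WT library thus lay far above the highest KO library, and the log2 change was -7.92 ± 0.30 (SE, n = 3 libraries a group; limma, adjusted p = 6.82e-12). AT3G01345, annotated only as an expressed protein, read 141, 132 and 146 FPKM in WT and was listed at 0 in all 3 KO libraries, where 3 reads would have given between 0.277 and 0.796 FPKM. MRD1 (AT1G53480), named for its fall in the methionine-accumulating mutant mto1, read 49.4, 38.3 and 43.0 FPKM in WT and was likewise listed at 0 in every KO library. Both genes were therefore detected in each WT library and in no KO library, and their changes on the log2(FPKM + 1) scale, -7.13 for AT3G01345 (limma, adjusted p = 1.43e-13) and -5.47 for MRD1 (adjusted p = 2.30e-10), depend on the pseudocount of 1.

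A pair of short genes showed the reverse pattern. AT1G75945, a hypothetical protein, was listed at 0 in all WT libraries and read 25.9, 28 and 11.8 FPKM in KO (limma, log2 change 4.43, adjusted p = 1.18e-08). AT2G21185, annotated as a transmembrane protein, was listed at 0 in all WT libraries and read 10.5, 9.78 and 23.4 FPKM in KO (log2 change 3.85, adjusted p = 4.31e-06). The KO values rest on few reads, 13 to 17 per library for AT1G75945 and 8 to 51 for AT2G21185. In WT, 3 reads would have given 1.85 to 3.0 FPKM for AT1G75945 and 1.22 to 1.98 FPKM for AT2G21185, so the KO libraries lay above the level that this depth could miss in WT.

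These 5 genes passed under every alternative processing and with any single library left out. The spans of MRD1 and AT2G21185 overlap other annotated genes in TAIR10.1, MRD1 with AT1G53490 and the non-coding gene AT1G07887, and AT2G21185 with the non-coding gene AT2G21187, all on the other strand, and no source used here says whether strand was used in counting. AT1G53490 itself did not pass (log2 change -0.25; limma, adjusted p = 0.840). Around the 10 passing genes, 29 of the 40 nearest genes, the 2 before and the 2 after each, were tested and 0 passed (limma, 4 at an unadjusted p under 0.05), with log2 changes from -0.90 to 0.71.

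The other 5 passing genes moved by smaller amounts. LAC2 (AT2G29130) encodes a laccase, a copper oxidase of the cell wall, and read 10.3, 11.8 and 10.3 FPKM in WT against 0.86, 1.25 and 1.95 FPKM in KO, a log2 change of -2.35 ± 0.37 (SE; limma, adjusted p = 0.0147). AT1G28070, annotated as an ATP-dependent RNA helicase, read 11.2, 9.10 and 13.9 FPKM in WT against 0.70, 1.73 and 2.92 FPKM in KO (-2.22 ± 0.35, adjusted p = 0.0147). AT3G17580, annotated as an SsrA-binding protein, read 7.07, 8.41 and 7.77 FPKM in WT and 0, 1.26 and 2.13 FPKM in KO (-2.19 ± 0.35, adjusted p = 0.0147). AT1G28070 overlaps AT1G28060 on the same strand, so reads of these genes may have been shared, and AT1G28060 did not pass (0.36; limma, adjusted p = 0.645). For LAC2, AT1G28070 and AT3G17580 every KO library was below every WT library, and within KO the lowest value was in replicate 1 and the highest in replicate 3, the deepest of the 3. AT3G17580 stood on 11 to 15 reads per WT library and 0 to 4 per KO library and shares 6.57% of its 31-base coding words with other genes, so its call is uncertain.

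AT4G15610 belongs to the UPF0497 family, which also holds the Casparian strip proteins. It was abundant, with 280, 212 and 241 FPKM in WT against 92.8, 106 and 89.3 FPKM in KO, and fell by 1.33 on the log2 scale (95% interval -1.80 to -0.86; limma, adjusted p = 0.0254). AT5G41180 encodes a leucine-rich repeat transmembrane kinase, of a class of cell-surface receptors, and rose from 4.94, 8.01 and 4.90 FPKM in WT to 16.32, 17.2 and 20.14 FPKM in KO (log2 change 1.47, 95% interval 0.96 to 1.98; limma, adjusted p = 0.0225). In neither did the groups overlap. All 5 of these genes kept their direction when libraries were left out. Each lost its call without WT replicate 1, without WT replicate 3 and without KO replicate 1 (limma, adjusted p from 0.0516 to 0.183), LAC2 and AT3G17580 also without WT replicate 2 (adjusted p 0.0586 and 0.0586), and AT4G15610 and AT5G41180 also without KO replicate 3 (0.132 and 0.132).

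**Figure D2:**
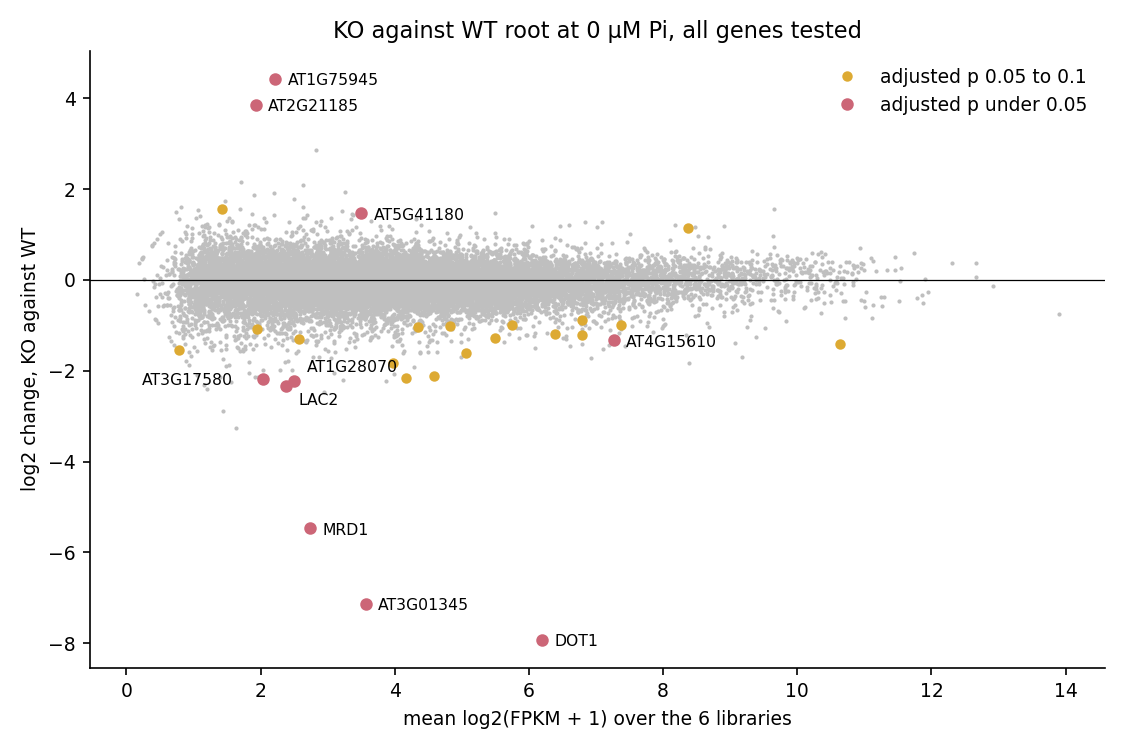
Log2 change in KO against WT root at 0 µM Pi for the 19166 genes tested, against the mean log2(FPKM + 1) over the 6 libraries. The 10 genes that passed are named, and of the 18 with an adjusted p between 0.05 and 0.1, 16 lie below 0.

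A further 18 genes came close, with adjusted p between 0.0774 and 0.0981 (limma). KO lay outside the WT range for all 18, lower for 16 and higher for 2. The same libraries gave the adjusted p, and 12.1% of all genes tested lay wholly lower and 6.58% wholly higher. UMAMIT17 (AT4G08300), of a family of amino acid exporters, read 75.1, 42.7 and 58.7 FPKM in WT and 13.5, 26.8 and 16.7 FPKM in KO (log2 difference -1.60; adjusted p = 0.0774). AT5G56100, an oleosin-like glycine-rich protein, differed by -2.12 (adjusted p = 0.0774). AT2G33830, a dormancy- and auxin-associated protein and the most abundant of the 18, read 4077, 1671 and 2564 FPKM in WT and 879, 1197 and 885 FPKM in KO (-1.41, adjusted p = 0.0933). SBP3, a selenium-binding protein, and the transcription factor gene NAC083 differed by -1.05 and -0.89 (limma, adjusted p = 0.0933 for each). For AT2G33830 the WT libraries lay farther from each other than the lowest of them lay from KO. Without KO replicate 2, in which UMAMIT17, AT2G33830 and NAC083 read nearest to WT, 29 genes passed, 25 of them lower, and all 10 of the first set were among them. UMAMIT17, NAC083 and BCE2 were among the added genes, as were UMAMIT33 and the sugar exporter gene SWEET12.

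The gene lists described next hold pathways of the root, and no member of any list passed (limma, adjusted p). Their members are given by values, by how many lay at an unadjusted p under 0.05, and by the median log2 difference, which was -0.05 over all genes tested. For comparison, 8.77% of all genes lay lower and 3.43% higher at that unadjusted p, and KO lay wholly below WT for 12.1% and wholly above for 6.58%. Counts of 1 or 2 members are given as they stand and read no further, since leaving out a single library moved many of them. Bulk RNA cannot tell fewer cells of a type from less RNA per cell.

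**Figure D3:**
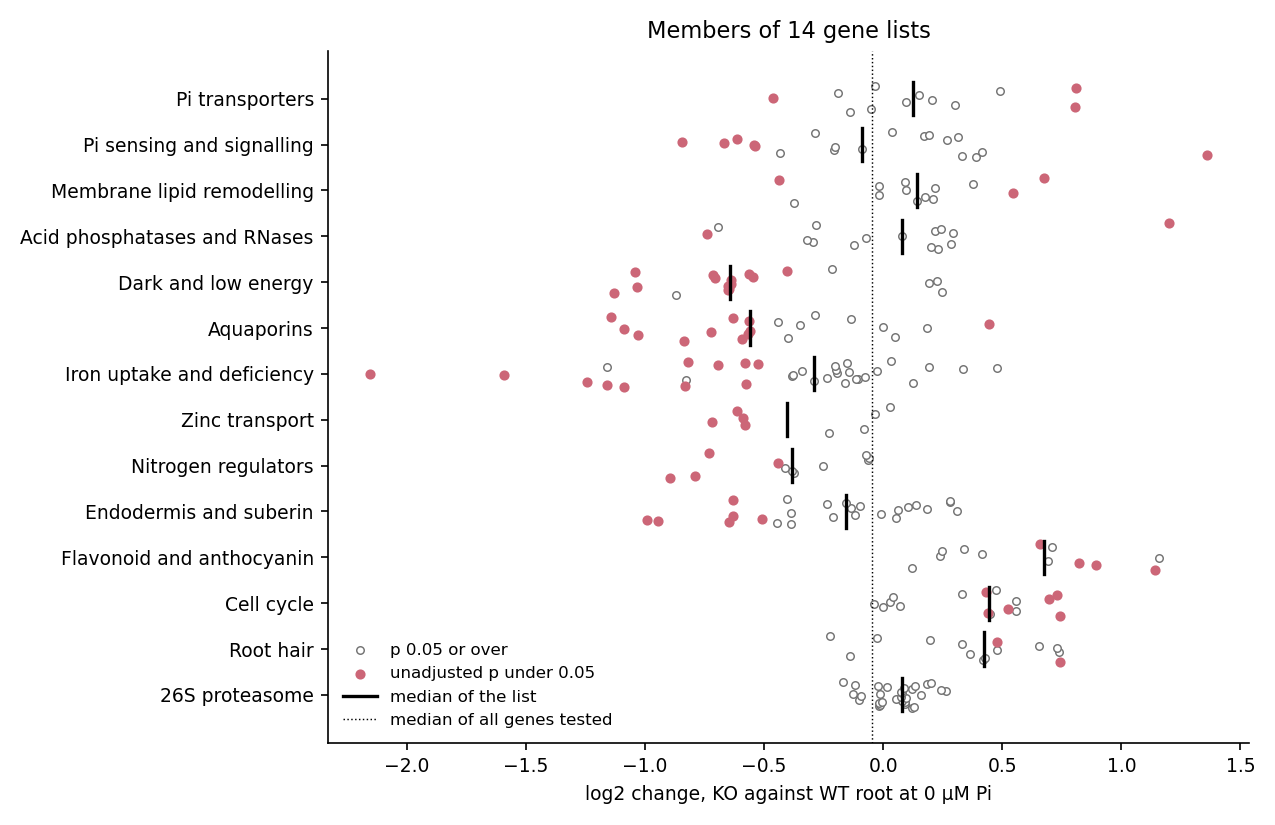
Log2 difference between KO and WT root at 0 µM Pi for each tested member of 14 gene lists, with filled points at an unadjusted p under 0.05, a bar at the median of the list and a dotted line at the median of all genes tested. The low-energy and aquaporin lists have the lowest medians shown, -0.64 and -0.56, the flavonoid list has the highest, 0.68, and the Pi lists have medians between -0.09 and 0.14.

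The Pi starvation genes themselves differed in both directions, and none passed. Among 12 Pi transporter genes tested, 1 lay lower and 2 higher at an unadjusted p under 0.05, with a median of 0.12. PHT1;1, the main uptake carrier, read 1202, 1007 and 1131 FPKM in WT and 947, 1344 and 807 FPKM in KO, and PHT1;4 read 19.0, 31.7 and 23.0 against 36.4, 29.6 and 24.6 FPKM. Both overlapped between the groups, with 95% intervals of the log2 difference from -0.64 to 0.36 for PHT1;1 and from -0.22 to 0.82 for PHT1;4 (limma, adjusted p = 0.856 and 0.652). PHT1;1 shares 64.0% of its coding words with 3 other genes, so its value is uncertain. PHO1, the exporter into the xylem, read 261, 265 and 254 FPKM in WT and 165, 248 and 163 FPKM in KO, wholly lower in KO (log2 difference -0.46; limma, adjusted p = 0.335).

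Of 19 sensing and signalling genes, 5 lay lower (26.3%) and 1 higher (5.26%), with a median of -0.09, and the 5 became 2 without WT replicate 1, 2 without KO replicate 3 and 3 without KO replicate 1. SPX1, a widely used marker of Pi status that encodes an inhibitor of PHR1, read 63.6, 137 and 97.0 FPKM in WT and 122, 159 and 98.9 FPKM in KO. The groups overlapped, and the 95% interval of its log2 difference was -0.19 to 0.98 (limma, adjusted p = 0.593). SPX3 was the member that lay higher, with 0.78, 3.52 and 1.16 FPKM in WT against 5.52, 8.30 and 3.85 FPKM in KO (log2 difference 1.36; limma, adjusted p = 0.155). Of the negative regulators, PHO2 read 88.7, 78.7 and 80.0 FPKM in WT against 55.2, 64.3 and 50.4 FPKM in KO (-0.54; limma, adjusted p = 0.318), and NLA differed by -0.54 as well. WRKY45, an activator of PHT1;1, differed by -0.84 (limma, adjusted p = 0.214), and WRKY75 and ZAT6, further factors of the Pi response, by -0.67 and -0.61. PHR1 itself averaged 32.4 FPKM in WT and 30.4 FPKM in KO, and the non-coding IPS1, which sequesters a microRNA that targets PHO2, overlapped between the groups.

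Membrane lipid and phosphatase genes gave the same mixed picture. In the lipid list 2 of 13 lay higher, SQD1, which makes the head group of sulfolipid, and GDPD1, a glycerophosphodiester phosphodiesterase, with log2 differences of 0.54 and 0.67, and PAH2, a phosphatidate phosphatase, lay lower at -0.44. In the phosphatase and RNase list 1 of 15 lay higher, the phosphatase gene PS2 at 12.9 FPKM in WT and 31.6 FPKM in KO, and 1 lower, PAP4 at 51.2 and 30.2 FPKM. The medians of the 2 lists were 0.14 and 0.08, against -0.05 for all genes tested.

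The list with the largest share of lower members was that of genes known to respond to darkness and low energy, which mark carbon shortage and the breakdown of amino acids for fuel. Of 18 members tested, 13 lay lower (72.2%) and 0 higher at an unadjusted p under 0.05, and 10 lay wholly below WT, with a median of -0.64. The 13 became 8 without KO replicate 1 and 7 without KO replicate 3. DRM1, a dormancy-associated gene, read 865, 388 and 617 FPKM in WT and 253, 333 and 280 FPKM in KO (log2 difference -1.04; limma, adjusted p = 0.126). DIN10, a raffinose synthase family gene induced in the dark, read 412, 314 and 324 FPKM in WT and 209, 277 and 189 FPKM in KO (-0.65, adjusted p = 0.227), and the β-glucosidase gene DIN2 differed by -1.13. For DRM1 and DIN10 the KO libraries all lay below the WT libraries, and KO replicate 2 was the closest to them. The trehalose phosphate synthase-like genes TPS8, TPS9, TPS10 and TPS11 lay lower by between -0.55 and -0.72, and TPS5 did not, at 0.23. ASN1, the asparagine synthetase also known as DIN6, and PRODH1, a proline dehydrogenase, did not lie lower, with log2 differences of 0.25 and 0.19.

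Some members of that list degrade leucine, isoleucine and valine, and none of them passed. BCAT2, the mitochondrial transaminase of the first step, read 35.2, 32.5 and 27.6 FPKM in WT and 11.4, 21.3 and 13.6 FPKM in KO (log2 difference -1.03; limma, adjusted p = 0.113). BCE2, the E2 subunit of the branched-chain keto acid dehydrogenase, read 74.5, 63.9 and 70.8 FPKM in WT and 26.8, 35.2 and 23.2 FPKM in KO (-1.28, adjusted p = 0.0862). BCDH BETA1, the E1 beta subunit of the same complex, read 28.9, 20.0 and 25.4 FPKM in WT and 10.1, 15.3 and 10.7 FPKM in KO (-0.99, adjusted p = 0.104). KO lay wholly below WT for each of the 3. Further down the leucine path, IVD, the isovaleryl-CoA dehydrogenase, differed by -0.64 and MCCA, a subunit of methylcrotonyl-CoA carboxylase, by -0.65, close to the median of the low-energy list. BCE2 and BCDH BETA1 were no list members and were named after their values were seen. Without KO replicate 2, BCAT2, BCE2, BCDH BETA1 and TPS9 passed (limma, adjusted p from 0.0360 to 0.0447).

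**Figure D4:**
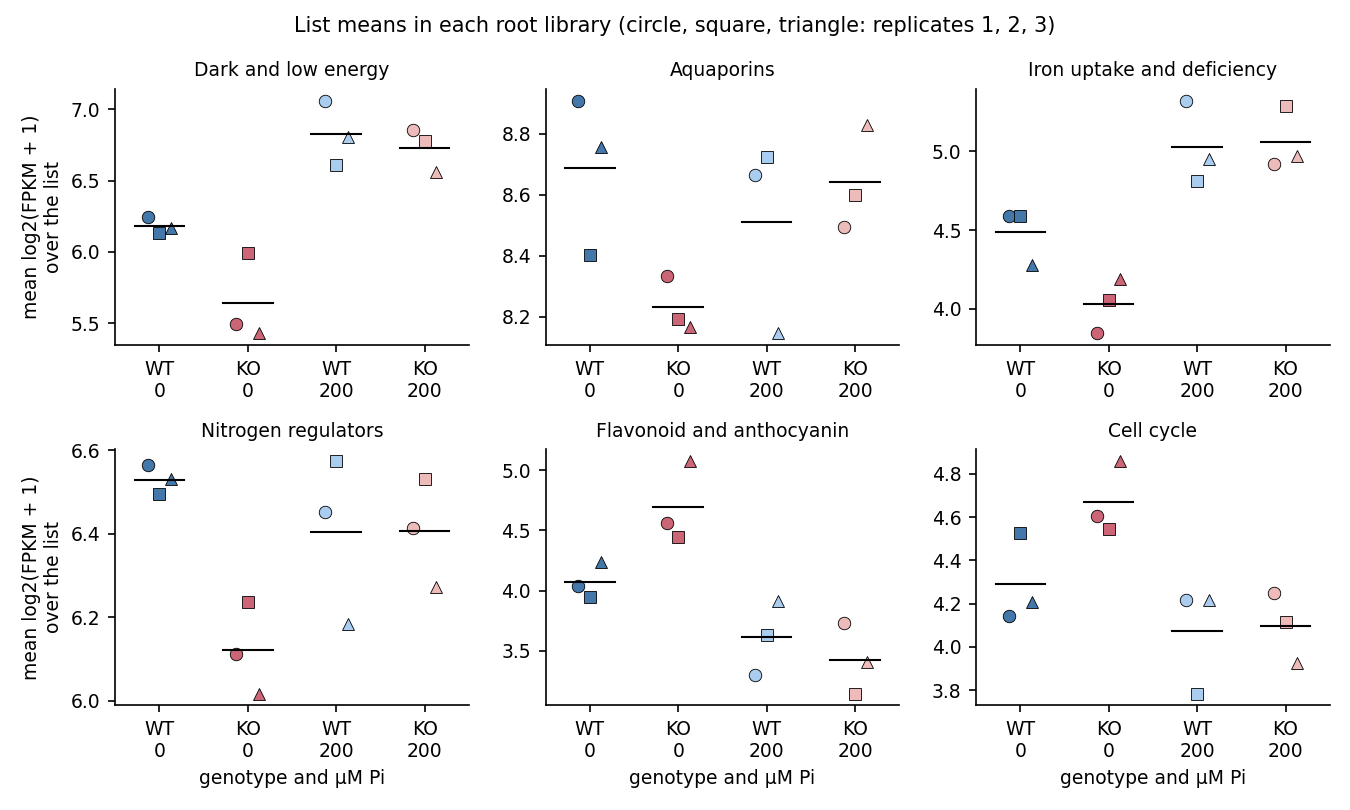
Mean log2(FPKM + 1) over the tested members of 6 lists in each WT and KO root library at 0 µM and 200 µM Pi, with a bar at the mean of the 3 libraries. These 6 lists were chosen after their values were seen. At 0 µM the KO and WT libraries do not overlap in any of the 6 panels, and at 200 µM they overlap in each. Means of several lists not shown also do not overlap at 0 µM, among them the cytokinin, autophagy, clock, salicylic acid and abscisic acid lists. The lack of overlap therefore does not mark out these 6.

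Aquaporins, the channels that carry water across the plasma membrane (PIP) and the vacuole membrane (TIP), were the second such group. Of 19 tested, 10 lay lower (52.6%) and 1 higher (5.26%), with a median of -0.56, and the 10 became 5 without WT replicate 1 and 5 without KO replicate 3. PIP1;5 read 200, 155 and 225 FPKM in WT and 98.1, 92.9 and 88.4 FPKM in KO (log2 difference -1.03; limma, adjusted p = 0.139). PIP2;4 read 177, 115 and 203 FPKM in WT and 101, 59.5 and 69.2 FPKM in KO (-1.09, adjusted p = 0.155). TIP2;3, which is largely a root gene, read 427, 258 and 359 FPKM in WT and 194, 155 and 120 FPKM in KO (-1.14, adjusted p = 0.192). Every KO library lay below every WT library for these 3 and also for PIP1;1 and PIP2;1, at 2260 and 3005 FPKM the most abundant of the PIP genes in WT, with log2 differences of -0.84 and -0.57. PIP2;8 was the exception, at 36.7, 38.4 and 36.9 FPKM in WT and 48.2, 51.6 and 53.6 FPKM in KO (0.44; limma, adjusted p = 0.302). PIP2;2 and PIP2;3 share 33.5% and 38.5% of their coding words with other genes, so their separate values are uncertain.

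Iron acquisition genes lay lower as well. Of 33 tested, 11 lay lower (33.3%) and 0 higher, with a median of -0.29, and the 11 became 6 without WT replicate 1 and 5 without both shallow KO libraries. IRT1, the iron carrier of the root epidermis, read 249, 212 and 267 FPKM in WT and 85.1, 101 and 167 FPKM in KO (log2 difference -1.09; limma, adjusted p = 0.308). FRO2, the reductase that supplies it with ferrous iron, read 114, 88.8 and 102 FPKM in WT and 37.7, 37.0 and 63.9 FPKM in KO (-1.16, adjusted p = 0.214). Both were wholly lower in KO, with replicate 3 the closest to WT. The regulators FIT and BHLH39 differed by -0.58 and -1.24, while the other Ib bHLH genes measured, BHLH38, BHLH100 and BHLH101, differed by -0.16, -0.29 and -0.83 and did not reach an unadjusted p under 0.05.

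The iron list also holds enzymes that make coumarins, which mobilise ferric iron, and none of them passed. S8H, which makes fraxetin, read 45.5, 47.9 and 19.3 FPKM in WT and 6.55, 9.70 and 20.0 FPKM in KO, where KO replicate 3 reached the lowest WT library (log2 difference -1.59; limma, adjusted p = 0.219). CYP82C4, which turns fraxetin into sideretin, read 67.3, 29.3 and 25.6 FPKM in WT and 8.46, 4.28 and 11.5 FPKM in KO, without overlap (-2.15, adjusted p = 0.0933), and shares 25.6% of its coding words with other genes. F6'H1, at the start of that path, differed by -0.38. IREG2, the vacuolar carrier that removes other metals that IRT1 lets in, differed by -0.82 (limma, adjusted p = 0.250) and the metal carrier NRAMP1 by -0.70. FER1, an iron store, read 437, 374 and 554 FPKM in WT and 668, 378 and 409 FPKM in KO, with overlap (0.06; adjusted p = 0.942). In the zinc list 4 of 8 lay lower (50%), ZIP3, ZIP4, ZIP5 and HMA2 by between -0.58 and -0.72, and the 4 became 0 without WT replicate 3 and 2 without KO replicate 1.

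The 11 regulators of nitrogen responses all had a log2 difference below 0, with a median of -0.38, and 4 of them lay lower at an unadjusted p under 0.05 (36.4%; 2 without both shallow KO libraries). LBD37, a repressor of nitrate-response genes, read 205, 134 and 179 FPKM in WT and 83.1, 104 and 87.2 FPKM in KO (-0.90; limma, adjusted p = 0.154), and its relative LBD38 differed by -0.79. CIPK23, the kinase that acts on nitrate and potassium transporters, read 83.9, 104 and 116 FPKM in WT and 62.8, 75.5 and 45.7 FPKM in KO (-0.73, adjusted p = 0.155). The groups did not overlap for any of the 3. Among 22 genes of nitrogen uptake and assimilation 0 lay lower and 2 higher (9.09%), with a median of 0.20.

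The barrier of the endodermis gave 6 lower members of 25 (24%) and 0 higher, with a median of -0.15, and 5 of the 6 were genes of the Casparian strip. CASP4, a scaffold protein of the strip, differed by -0.95 with overlap between the groups, and PER64, the peroxidase of its lignin, by -0.63 without overlap (limma, adjusted p = 0.231 and 0.226). CASP5 and ESB1, a dirigent protein of the same structure, differed by -0.99 and -0.51. CASP1, at -0.39, was not among the 6 (limma, unadjusted p = 0.249, adjusted p = 0.659). MYB92, a regulator of suberin genes, differed by -0.63, while the suberin enzymes CYP86A1 and GPAT5 differed by -0.01 and -0.12. In the root hair list the median was 0.42 and 2 of 14 lay higher (14.3%), among them RHD6, a regulator of hair initiation, at 0.74, and the groups overlapped for each of the 14. Among 14 xylem and secondary wall genes 0 lay lower and 0 higher.

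Flavonoid genes lay higher in KO. Of 12 tested, all had a log2 difference above 0 and 4 lay higher at an unadjusted p under 0.05 (33.3%), with a median of 0.68, and the 4 became 2 without KO replicate 3. CHS, the chalcone synthase that opens the path, read 184, 290 and 202 FPKM in WT and 415, 529 and 535 FPKM in KO (1.14; limma, adjusted p = 0.0933). F3H, flavanone 3-hydroxylase, read 34.2, 38.0 and 33.6 FPKM in WT and 59.8, 64.6 and 75.7 FPKM in KO (0.90, adjusted p = 0.144). F3'H, the hydroxylase of the B ring, read 12.6, 10.4 and 12.8 FPKM in WT and 16.8, 19.7 and 31 FPKM in KO (0.82, adjusted p = 0.237). Each lay wholly above WT in KO. DFR, which leads to anthocyanins, overlapped between the groups at 26.7, 10.5 and 39.0 FPKM in WT and 44.8, 36.5 and 81.7 FPKM in KO.

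Genes of the cell cycle, which mark dividing cells of the meristem, also lay higher in KO. Of 16 tested, 6 lay higher (37.5%) and 0 lower, with a median of 0.44. The 6 became 3 without WT replicate 1, 3 without KO replicate 3 and 2 without WT replicate 3. MCM2, a subunit of the replicative helicase, read 8.76, 10.8 and 6.29 FPKM in WT and 15.1, 12.8 and 16.2 FPKM in KO (0.73; limma, adjusted p = 0.245). CYCB1;1, the cyclin of mitosis, read 6.05, 7.07 and 8.80 FPKM in WT and 11.2, 11.7 and 15.9 FPKM in KO (0.74, adjusted p = 0.302). Both were wholly higher in KO, while CDKB2;1 and AUR1, kinases of mitosis, differed by -0.04 and 0.04.

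Glucosinolate synthesis genes had 4 of 16 members higher (25%) and 0 lower at an unadjusted p under 0.05, with a median of 0.22. In the cytokinin list 2 of 9 lay lower (22.2%) and 0 higher, 8 had a log2 difference below 0, and the median was -0.50. The further lists described here held few or no members past that unadjusted p. In the 26S proteasome list 0 of 30 members lay lower and 0 higher, with a median of 0.08. Among 20 clock genes 1 lay lower and 1 higher (5% each), and among 18 photosynthesis genes none did, with a median of 0.15. In the autophagy list 15 of 16 members had a log2 difference below 0, with a median of -0.30, and the mean log2 level over the list was 5.806 to 6.004 in WT and 5.431 to 5.754 in KO, without overlap. At the unadjusted p 3 of the 16 lay lower (18.8%), ATG8B, ATG8E and the receptor gene NBR1, and the 3 became 1 without WT replicate 3 and 5 without KO replicate 1.

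KO and WT roots kept at 200 µM Pi, which are other libraries, were set beside these differences. A gene that did not pass or overlapped there is not shown to lack a difference. There 6 of 19166 genes passed (0.0313%; limma, adjusted p), of which 5 had passed at 0 µM, or 50% of the 0 µM genes and 83.3% of the 200 µM genes. These were DOT1, AT3G01345, MRD1, AT1G75945 and AT2G21185, with log2 changes at 200 µM of -7.20, -6.40, -5.33, 5.43 and 4.52 (limma, adjusted p from 9.58e-13 to 3.26e-07). AT5G41180 just missed, at 1.40 (adjusted p = 0.0522). The other 4 gave -1.49 for LAC2, -0.83 for AT1G28070, -0.51 for AT3G17580 and 0.11 for AT4G15610 (adjusted p from 0.270 to 0.868). The remaining gene that passed at 200 µM, AT1G26300, gave -0.90 there and -0.07 at 0 µM (limma, adjusted p = 0.0446 and 0.900). Without WT replicate 1 at 200 µM, 923 genes passed at that level, and without any other single library 5 or 6. AT4G15610 read 541, 423 and 253 FPKM in WT and 477, 382 and 399 FPKM in KO at 200 µM, where the groups overlapped.

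**Figure D5:**
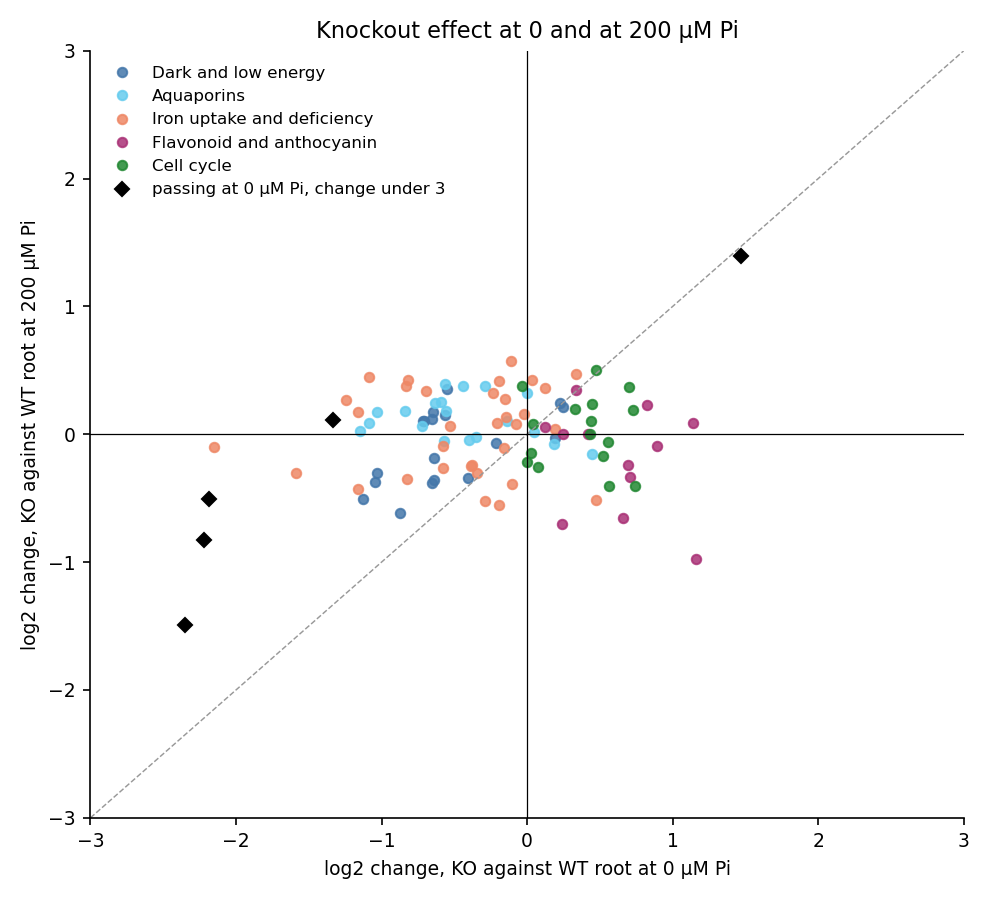
Log2 difference between KO and WT root at 0 µM Pi (horizontal axis) and at 200 µM Pi (vertical axis), for the tested members of 5 lists and for the 5 passing genes with a change under 3, with the line of equal values dashed. Most low-energy, aquaporin and iron genes lie left of the vertical line at 0 and on both sides of the horizontal line at 0, and AT5G41180 lies on the line at 1.47 and 1.40.

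The difference between the knockout effects at 0 µM and at 200 µM was tested directly. It passed for 0 of 19166 genes (limma, smallest adjusted p = 0.200), with 898 higher (4.69%) and 1347 lower (7.03%) at an unadjusted p under 0.05. Without WT replicate 1 at 200 µM it passed for 158 genes, and without any other single library for 0. The 158 held IRT1, IRT2, FRO2, BTS and IREG2 of the iron list. They also held PHO2, DIN10, SULTR1;2, LSU2, ABCG6, CTR1 and AUX1 of other lists. The WT libraries then left at 200 µM, replicates 2 and 3, read low for 332 genes with coding lengths above 4000 bases. Their median log2 deviations there were -1.13 and -0.46, against -0.0 in replicate 1. The part of gene length in the 158 was not tested. With all libraries, the difference of the effects for AT4G15610 was -1.44, with a 95% interval of -2.11 to -0.78 (limma, adjusted p = 0.296). For UMAMIT17 it was -1.96 (adjusted p = 0.296). Both were among the 158, at -1.68 and -2.24 without WT replicate 1 at 200 µM (limma, adjusted p = 0.0339 and 0.0342), as was BCE2. In the lists, the median difference between KO and WT at 200 µM was -0.05 for low-energy genes, 0.11 for aquaporins, 0.08 for iron genes, 0.02 for nitrogen regulators, -0.04 for flavonoid genes and 0.04 for cell cycle genes. For the difference of the effects, 11 of 19 aquaporins, 8 of 33 iron genes and 7 of 18 low-energy genes lay lower at an unadjusted p under 0.05, and 4 of 12 flavonoid genes higher. Of the endodermis list 8 of 25 lay lower, of the nitrogen regulators 2 of 11, and of the cell cycle genes 2 of 16 higher. The difference of the effects contains the 0 µM difference by which these lists were singled out. The counts are therefore no separate support for a dependence on Pi.

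The same 10 genes were read in the other material. In leaves of the same plants at 0 µM Pi, 6 of 16489 genes passed for KO against WT (0.0364%; limma, adjusted p), and the 5 genes at or near 0 in one genotype of the root gave -7.26 for DOT1, -5.60 for AT3G01345, -4.11 for MRD1, 3.91 for AT1G75945 and 5.60 for AT2G21185 (adjusted p from 8.59e-11 to 0.00148). The sixth was CYP97B3, a cytochrome P450 of carotenoid synthesis, at 2.19 (adjusted p = 6.95e-06), which in root read 3.09, 6.82 and 5.61 FPKM in WT and 11.7, 8.61 and 9.86 FPKM in KO and did not pass (0.88; limma, adjusted p = 0.144). OE and KO roots were each set against the same 3 WT libraries, so their values are only placed side by side. In OE root, where 13 genes passed (0.0678%), MRD1 was listed at 0 in all 3 libraries and AT3G01345 read 0.13, 0 and 0 FPKM. DOT1 read 100, 104 and 56.5 FPKM in OE, between WT and KO. AT1G75945 read 40.4, 30.9 and 44.1 FPKM in OE, AT2G21185 12.7, 9.35 and 5.13 FPKM, LAC2 1.86, 0.77 and 1.12 FPKM, and AT5G41180 19.1, 18.4 and 12.1 FPKM. All 4 of these lay outside the WT range on the same side as KO. AT1G28070, AT3G17580 and AT4G15610 read 6.02 to 7.0, 3.87 to 4.93 and 106 to 166 FPKM in OE, and their means lay between those of KO and WT. Some list shifts were also not particular to KO. Mean log2 levels of low-energy genes were 5.458 to 5.893 in OE root at 0 µM and 6.135 to 6.244 in WT. Nitrogen regulators gave 6.17 to 6.381 against 6.494 to 6.564, and flavonoid genes 4.774 to 5.173 against 3.945 to 4.234. The aquaporin, iron and cell cycle means of OE overlapped those of WT, which does not show these shifts to be particular to KO. Aquaporins gave 8.182 to 8.627 in OE against 8.401 to 8.908 in WT. Iron genes gave 3.771 to 4.332 against 4.278 to 4.59, and cell cycle genes 4.504 to 4.566 against 4.144 to 4.525. The summed level of the iron genes, 1339 to 1426 FPKM in OE, lay wholly below the 1752 to 2008 FPKM of WT.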

How the data were processed

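The authors deposited FPKM per gene for each library, and the steps between low values followed the coding length of the gene. Per the labels' protocols, libraries were strand-specific and made from poly(A) RNA. Per the submitters' processing notes, Trimmomatic, HISAT2 2.2.1, DESeq2 and TAIR10 were used; no source used here names the counting tool or its strand setting. FPKM are not counts, so limma 3.58.1 (R 4.3.3, trend on the variance) was fitted to log2(FPKM + 1) over the 18 root libraries with a mean per group, for the 19166 genes that averaged 1 FPKM or more, and p-values were adjusted over all of them (Benjamini-Hochberg, 0.05). Fold changes are on that scale, which understates low genes. Leaf was fitted separately. Reads were recovered from the steps of low values (100.0% whole within 0.1 read), and intervals are at the 95% level. The fit was tested on simulated data.

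The members and the gene lists were chosen with earlier results of these data known. The rule for names took up to 12 rises and falls that passed, the 5 most abundant per direction, up to 3 per list and direction that passed, and a set of markers. List members and genes that did not pass were named after their values were seen. Alternatives were a pseudocount of 0.1, other filters, the 2 groups alone, median-of-ratios scaling, no variance trend, voom on recovered reads, a replicate block, and each library left out. Shares of coding words held in common with other genes, and neighbouring genes, were taken from the TAIR10.1 reference. The PPSR1 locus was not analysed here.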

Additional observations from a re-analysis of the deposited data

How the results depend on the processing

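The 5 genes at or near 0 in either genotype passed under every alternative run, with adjusted p up to 0.0220 (limma; voom on recovered reads). The count of genes passing at 0 µM was 17 with the 2 groups fitted alone and 5 without both shallow KO libraries, an alternative chosen after the depth was seen, and it lay between 5 and 29 with single libraries left out. At 200 µM it lay between 5 and 923 and for the difference of the effects between 0 and 158, in both cases highest without WT replicate 1 at 200 µM; the cause was not tested. The replicate numbers did not pair the libraries, with correlations of same-numbered deviations of -0.08, 0.03 and -0.11. The replicate block gave 11, 5 and 0 genes for these 3 counts. In voom the calls of LAC2, AT1G28070 and AT3G17580 were lost (adjusted p = 0.130, 0.207 and 0.255). In the groups alone those of AT1G28070, AT3G17580 and AT5G41180 were lost (0.0526, 0.0920 and 0.0675), with no variance trend that of AT4G15610 (0.0566), and with a pseudocount of 0.1 that of AT3G17580 (0.0966). Without both shallow KO libraries all 5 of these genes were lost (adjusted p from 0.237 to 0.333). The alternatives were not limited to the genes named, but the sign was followed only for part of the named genes that did not pass. Among those the sign changed in 4 cases. PHT1;1 gave 0.0235 without KO replicate 3, -0.34 without KO replicate 2 and -0.46 without both shallow KO libraries. FER1 gave -0.07 without WT replicate 2, -0.19 without KO replicate 1 and -0.13 without both shallow KO libraries, and up to 0.22 without KO replicate 2. Depth limits low genes most, since 3 reads in KO replicate 1 are worth several times the FPKM they are worth in WT replicate 1.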
